A study of Mus musculus with 7 samples.

Results

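The genes described here are 9 transcription factor genes that set or mark the macrophage lineage, namely Spi1, Runx1, Cebpa, Cebpb, Maf, Mef2c, Bhlhe40, Bhlhe41 and Mitf. They were found by gene symbol, as every row of the deposited array table whose probe set (the group of short probes that reports 1 transcript) carried exactly 1 of these symbols. This gave 26 of 34945 such rows, or 9 of 18193 genes. The measured material was RNA of macrophages sorted by GFP and by F4/80, a macrophage surface protein, after papain digestion of the brain. The normal brain group held 3 arrays from C57/Bl6 mice, 8 weeks of age, for which no label states whether they carried GFP marrow. The GL261 group held 4 arrays from tumours of GL261, a mouse glioma cell line, grown for 21 days in the brains of C57/Bl6 mice that had received GFP bone marrow, and the age of these mice is not stated. The labels do not say whether each array came from its own mouse, so p-values measure only the spread between these arrays, which may be technical. In such bulk samples, fewer cells of a type and less RNA per cell cannot be told apart.

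PU.1, the product of Spi1, is an ETS-family protein that opens the regulatory regions of myeloid genes and is required for macrophages to form. RUNX1 acts before it in blood development, and C/EBP-alpha and C/EBP-beta act beside it, the first in committing progenitors to the myeloid fate and the second in mature and activated macrophages. c-MAF, the product of Maf, supports expression of resident macrophage genes such as Il10 and restrains self-renewal, and MEF2C is known in brain as a regulator that restrains microglial activation. BHLHE40 and BHLHE41 are related repressors that bind E-boxes and act in the circadian clock and in the proliferation of tissue macrophages. MITF belongs with TFEC, TFE3 and TFEB to the MiT/TFE family, which switches on lysosome genes, and in osteoclasts MITF and PU.1 act together on bone-resorbing enzyme genes.

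Promoter sequences are shown for 4 of the factors whose signal differed between the groups, so that the letters these families bind can be seen in place. They are the 250 bases before a start site in RefSeq, build GRCm38.p6, which held windows for 6 of the 9 genes (11 windows), and not Spi1, Maf and Bhlhe40. Capitals mark matches, on either strand, to the letters CACGTG (an E-box), GAGGAAGT (a PU.1 site), TGTGGT (a RUNX site), TTGCNNAA (a C/EBP site), TGCTGA (a MAF core motif) or the MEF2 site. The Mitf window lies at chr6:97806808-97807057 on the plus strand, the Mef2c window at chr13:83573357-83573606 on the plus strand, the Bhlhe41 window at chr6:145865421-145865670 on the minus strand and the Cebpb window at chr2:167688665-167688914 on the plus strand.
Mitf: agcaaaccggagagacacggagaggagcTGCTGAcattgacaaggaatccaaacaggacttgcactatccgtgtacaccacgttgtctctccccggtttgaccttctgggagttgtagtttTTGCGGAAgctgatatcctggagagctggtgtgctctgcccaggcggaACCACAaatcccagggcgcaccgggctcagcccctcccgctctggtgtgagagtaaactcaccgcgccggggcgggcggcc
Mef2c: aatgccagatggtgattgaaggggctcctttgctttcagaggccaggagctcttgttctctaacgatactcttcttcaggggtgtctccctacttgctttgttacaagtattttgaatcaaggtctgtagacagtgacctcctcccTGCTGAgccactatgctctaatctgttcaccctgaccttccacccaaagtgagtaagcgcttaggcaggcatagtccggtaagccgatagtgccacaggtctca
Bhlhe41: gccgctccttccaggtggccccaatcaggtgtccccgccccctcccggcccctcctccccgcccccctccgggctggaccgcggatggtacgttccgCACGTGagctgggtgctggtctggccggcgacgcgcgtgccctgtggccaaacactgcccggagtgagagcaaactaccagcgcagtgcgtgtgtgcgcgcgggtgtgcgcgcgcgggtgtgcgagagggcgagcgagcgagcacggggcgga
Cebpb: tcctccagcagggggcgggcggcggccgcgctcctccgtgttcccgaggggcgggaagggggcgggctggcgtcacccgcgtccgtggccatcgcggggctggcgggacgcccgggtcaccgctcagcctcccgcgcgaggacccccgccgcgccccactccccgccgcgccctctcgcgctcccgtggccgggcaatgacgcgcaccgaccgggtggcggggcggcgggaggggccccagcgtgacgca

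The Mitf window held 3 matches, a MAF core motif from -222 to -217, a C/EBP site from -129 to -122 and a RUNX site on the reverse strand from -81 to -76, counted from the start site, with no overlap between them. Of the 3 Mitf windows it was the one with the most matches. The Mef2c window held a MAF core motif from -104 to -99, the only match in the 3 windows of that gene, and the Bhlhe41 window held an E-box from -153 to -148. The Cebpb window, at 81.6% G and C, held none. Of 32851 RefSeq promoter windows of this length, 6.02% held the E-box, 2.44% the PU.1 site, 14.0% the RUNX site, 9.56% the C/EBP site, 16.1% the MAF core motif and 0.508% the MEF2 site. These matches are descriptions of the letters, and the arrays measured no binding.

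All 9 genes passed the filter on low values and were tested, each by the probe set whose mean was highest on the scale log2(signal + 6), and 8 of them were above background on all 7 arrays. The signal is a linear MAS5 intensity, and a gene was called when its limma p, adjusted by the Benjamini-Hochberg method over 12125 genes, was under 0.05. In GL261, Cebpb and Mitf rose and Maf and Mef2c fell, Bhlhe41 was called lower, while Spi1, Runx1, Cebpa and Bhlhe40 were not called. Bhlhe41 passed the filter, a mean log2(signal + 6) of 4.93 over all arrays, only through normal brain, where its mean was 7.32 against 4.54 in GL261, and is left out of the counts that follow. Of the 8 genes whose mean passed in both groups, 4 were called, 2 higher and 2 lower. Of the 11381 genes that passed in both groups 9.39% were called, 5.32% higher and 4.08% lower, and of all genes tested 10.1%, with 5.92% higher and 4.20% lower. In the same 4 genes no array of one group lay within the range of the other, against 22.6% of the genes that passed in both and 23.4% of all genes. By probe set, 10 of the 24 that passed in both groups were called, 2 higher and 8 lower, against 4.98% of such probe sets and 5.45% of the 27022 tested. The 8 called lower were 5 of Maf and 3 of Mef2c, and probe sets of 1 gene are not independent, so this count repeats those genes.

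**Figure D1:**
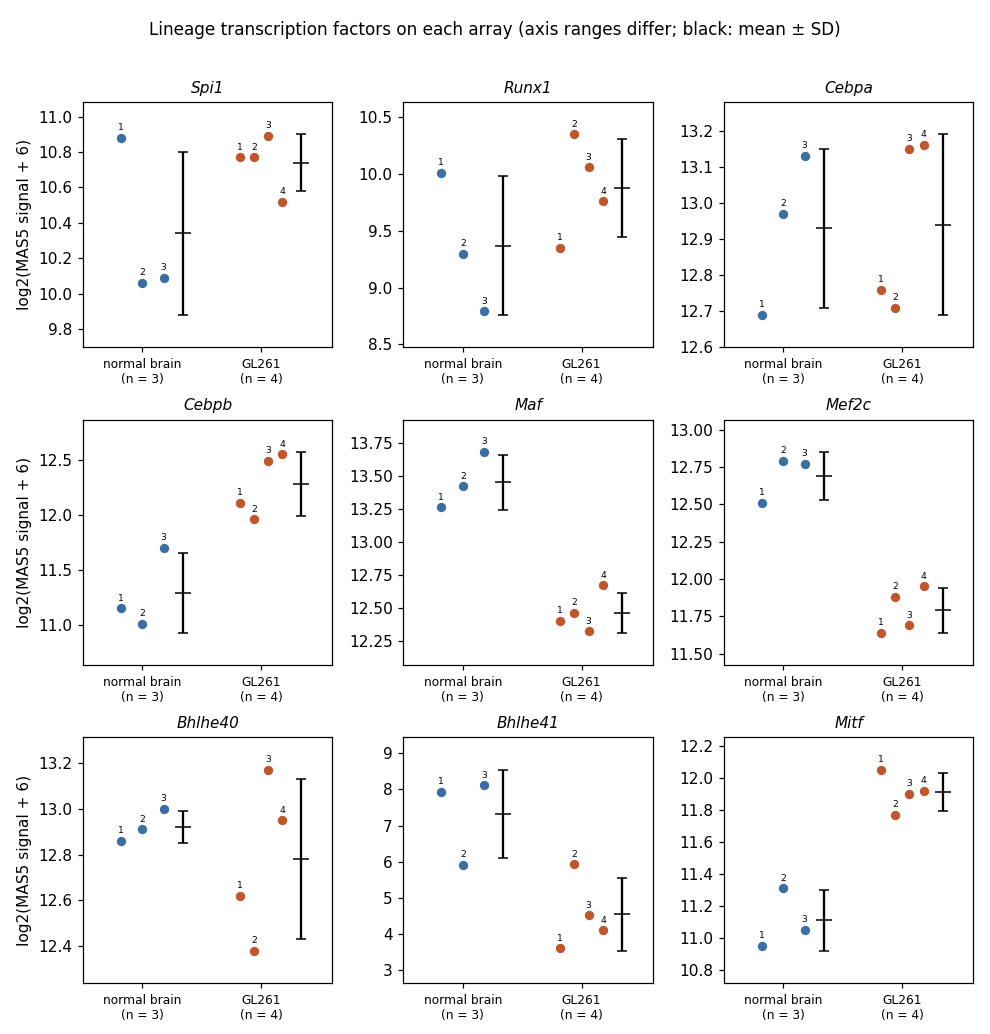
Signal of each factor on every array, as log2(MAS5 signal + 6), in normal brain (blue, n = 3) and GL261 (orange, n = 4). Small digits are replicate numbers and the black bars show mean ± SD. Cebpb and Mitf lie higher on all 4 GL261 arrays, Maf and Mef2c lie lower on all 4, and the groups overlap for the other 5 genes.

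Among the factors that start the lineage, Spi1 had signals of 1878, 1065 and 1082 in normal brain and 1743, 1740.1, 1890.0 and 1457 in GL261. Normal brain replicate 1 lay among the GL261 arrays and the other two lay below all of them. The log2 fold change was 0.39 (SE 0.22, 95% confidence interval -0.08 to 0.87, limma adjusted p = 0.282). Without normal brain replicate 1 it was 0.66 (limma adjusted p = 0.0533), and Spi1 was called in 0 of 18 alternative settings. The array has 1 probe set for this gene.

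Runx1 gave signals of 1026, 624 and 438 in normal brain and 645, 1298, 1059 and 860.1 in GL261 at the probe set 1422864_at. The groups overlapped and the log2 fold change of 0.51 (SE 0.32, interval -0.19 to 1.21) was not called (limma adjusted p = 0.345). The other 5 Runx1 probe sets ranged from -1.02 to 0.28, none was called and in each the groups overlapped. The lowest of them, 1452531_at, read 263, 230.0 and 124 in normal brain against 118, 159, 82.3 and 48.3, so the probe sets of this gene did not share a direction. Its change differed from that of 1422864_at by -1.53 within arrays (exact permutation p = 0.0571, adjusted p = 0.389 over 17 pairs of probe sets, two-sided). The lowest p that 7 arrays allow is 0.0286, so no pair alone could pass after this adjustment.

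Cebpa read 6594, 8017 and 8947 in normal brain and 6918, 6675, 9087 and 9145 in GL261. Both groups spanned nearly the same range, with a log2 fold change of 0.01 (SE 0.17, interval -0.36 to 0.39, limma adjusted p = 0.971). Of the 4 factors that were not called, Cebpa and Bhlhe40 had the narrowest intervals.

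Cebpb, the C/EBP form of activated macrophages, rose in GL261. Its signals were 2273, 2058 and 3319 in normal brain and 4419, 3965, 5729 and 5990.0 in GL261. Every GL261 array lay above every normal brain array. The difference was 1.98-fold (log2 0.99, SE 0.20, interval 0.55 to 1.43, limma adjusted p = 0.0120). The dimmer probe set 1427844_a_at read 98.5, 71.1 and 69.2 against 128, 155, 105 and 149, again without overlap, but its log2 change of 0.71 was not called (limma adjusted p = 0.407). Cebpb kept its call in all 7 fits without 1 array and lost it with median centring (limma adjusted p = 0.0586) and with variances that do not follow the signal (0.0742).

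Within arrays, Cebpb minus Cebpa on the log2 scale went from -1.64 ± 0.28 (SD, n = 3) in normal brain to -0.67 ± 0.06 (SD, n = 4) in GL261. This is a comparison of changes, since levels of different probe sets cannot be compared. The change of 0.97 reached the lowest p that 35 splits of the arrays can give (two-sided exact permutation p = 0.0286), and 0.0571 after adjustment over 2 such pairs, which is above 0.05 for any pair that reaches the lowest p alone.

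Maf fell in GL261 on every probe set. At 1456060_at its signals were 9798, 10949 and 13098 in normal brain and 5412, 5624, 5112 and 6490.0 in GL261. The 4 tumour arrays lay close together, all below the lowest normal brain array. The gene was 1.99-fold lower (log2 -0.99, SE 0.15, interval -1.32 to -0.66, limma adjusted p = 0.00264), and it was called in all 18 alternative settings.

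The other Maf probe sets showed the same direction without overlap of the groups. Log2 changes of the 6 ran from -2.48 to -0.82, and 5 of them were called. The largest change, at 1444073_at, came from 1952, 1841 and 2668 in normal brain against 639.8, 758, 161 and 251 in GL261, where replicates 3 and 4 were lower than replicates 1 and 2. The probe set that was not called, 1447945_at, was the dimmest, at 84.6, 201 and 138 against 48.2, 34.8, 59.3 and 35.5 (log2 -1.49, limma adjusted p = 0.120). Set against 1456060_at within arrays, the change of the other 5 probe sets differed by -1.49 to 0.17.

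Mef2c fell to a like extent. At 1451506_at it read 5810.4, 7090.2 and 6959 in normal brain and 3186, 3766, 3309 and 3942 in GL261. The groups were separate and each was narrow. The gene was 1.86-fold lower (log2 -0.90, SE 0.14, interval -1.21 to -0.58, limma adjusted p = 0.00371) and was called in all 18 alternative settings. The 5 Mef2c probe sets changed by -1.46 to -0.72, and 3 of them were called, those whose groups did not overlap. The largest change was at 1424852_at, from 4136, 6013 and 4783 to 1742, 2753, 1572 and 1356.

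**Figure D2:**
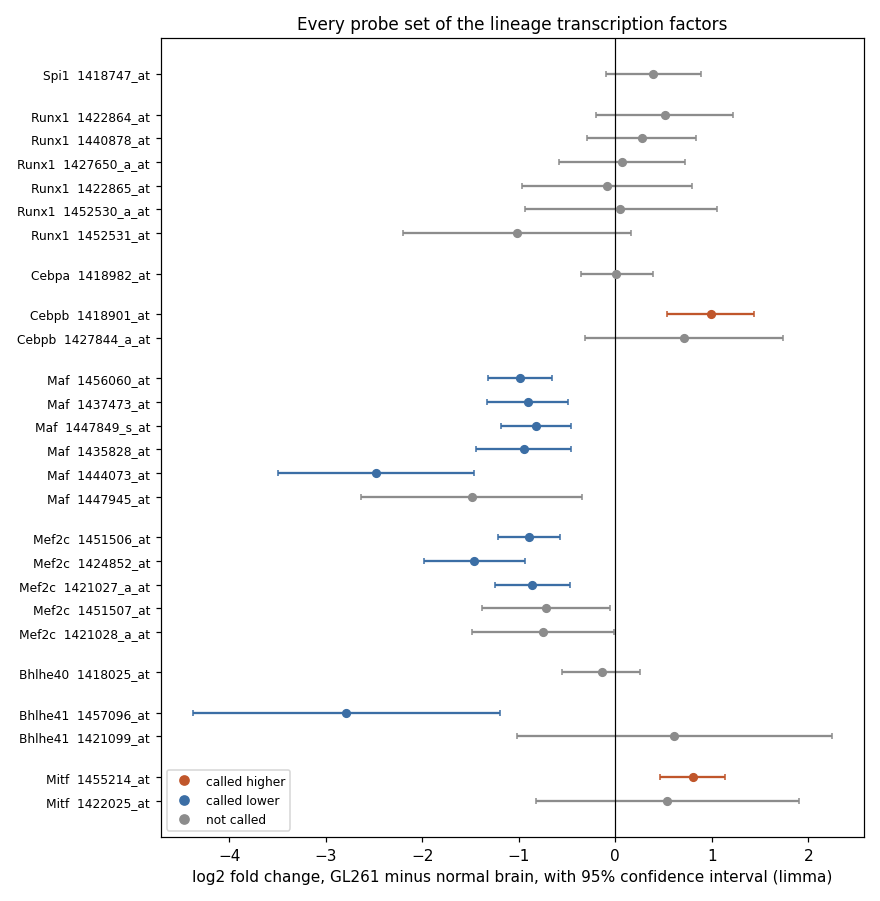
Log2 fold change (GL261 minus normal brain) with its 95% confidence interval for all 26 probe sets, each tested by limma among 27022 probe sets. The 6 probe sets of Maf and the 5 of Mef2c lie below 0, those of Runx1 lie on both sides, and the pair of Bhlhe41 points in opposite directions.

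Bhlhe40 read 7406, 7681 and 8177 in normal brain and 6283, 5325, 9220.3 and 7907 in GL261. The normal brain values lay inside the wider range of the tumour arrays. Its log2 fold change was -0.14 (SE 0.18, interval -0.54 to 0.26, limma adjusted p = 0.668), and it was called in 0 of 18 alternative settings.

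Bhlhe41 was called lower, with GL261 values near background except on replicate 2. At 1457096_at it read 240.3, 54.6 and 269.8 in normal brain and 6.09, 55.1, 16.9 and 11.1 in GL261, above background on 3 of 3 and on 2 of 4 arrays. Normal brain replicate 2 and GL261 replicate 2 were nearly equal, so the groups overlapped. The fitted log2 difference was -2.79 (SE 0.71, interval -4.33 to -1.24, limma adjusted p = 0.0296). It is given as a description, since the gene passed the filter only through the group where it is high and the GL261 mean rests partly on values at background.

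The other Bhlhe41 probe set, 1421099_at, read 80.8, 22.1 and 4.66 in normal brain against 30.3, 99.6, 32.3 and 22.7, and its log2 change of 0.61 was not called (limma adjusted p = 0.677). Within arrays the change of the pair differed by 3.40 (two-sided exact permutation p = 0.0286, the lowest possible, and adjusted p = 0.389 over the 17 pairs). The call at 1457096_at therefore had no counterpart at 1421099_at.

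The call also depended on the arrays used. It held when normal brain replicate 2 (log2 -3.49) or GL261 replicate 2 (-3.25) was left out. It was lost when the array left out was normal brain replicate 1 (-2.48, limma adjusted p = 0.0819) or, of GL261, replicate 1 (-2.48, 0.0836), 3 (-2.78, 0.0769) or 4 (-2.64, 0.0738). Without normal brain replicate 3 the probe set with the higher mean became 1421099_at, which gave -0.12 (limma adjusted p = 0.940), while 1457096_at gave -2.40 (0.125 over all probe sets). In all, 7 of 17 alternative settings kept the call, and with the replicate number as a block it was lost (-2.64, limma adjusted p = 0.0866).

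**Figure D3:**
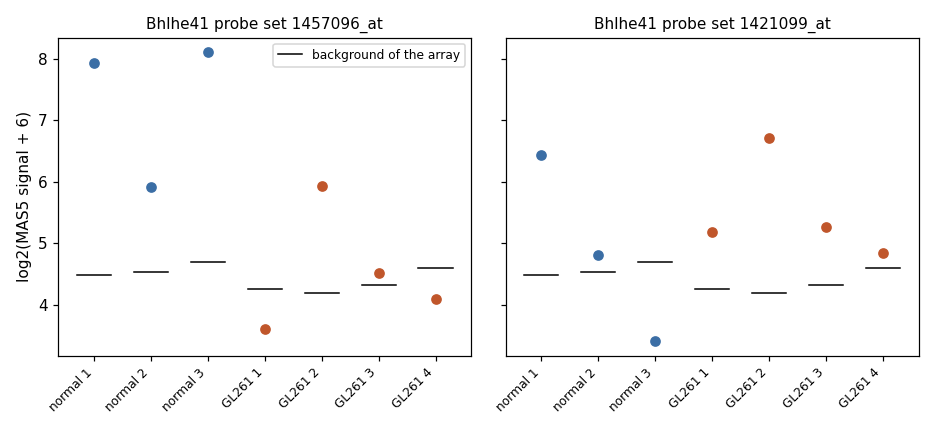
The 2 probe sets of Bhlhe41 on each array, as log2(MAS5 signal + 6), in normal brain (blue) and GL261 (orange). Black lines give the background of each array, the 95th percentile of 27 unspiked control probe sets. At 1457096_at only GL261 replicates 2 and 3 lie above it among the tumour arrays.

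Bhlhe41 minus Bhlhe40 within arrays changed by -2.65 (two-sided exact permutation p = 0.0857, and 0.0857 after adjustment over 2 pairs). Without normal brain replicate 3, where 1421099_at stood for Bhlhe41, this change was -0.02. Bhlhe41 at 1457096_at changed by -2.40 without that array, so the -0.02 reflects the switch of probe set. With a pseudocount of 58 the change of Bhlhe41 minus Bhlhe40 was -1.37.

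Mitf rose in GL261. At 1455214_at it read 1978, 2539 and 2117 in normal brain and 4234, 3478, 3816 and 3877 in GL261. All 4 tumour arrays lay above all 3 normal brain arrays. The difference was 1.74-fold (log2 0.80, SE 0.15, interval 0.48 to 1.13, limma adjusted p = 0.00744). The dimmer probe set 1422025_at read 222, 256 and 43.2 against 189, 154, 358 and 158 and overlapped (log2 0.54, limma adjusted p = 0.660). Mitf kept its call in all 7 fits without 1 array. It lost it with median centring (limma adjusted p = 0.0655), with variances that do not follow the signal (0.0561) and with the mean of both probe sets (log2 0.67, 0.232).

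Of the other 3 MiT/TFE genes, 1 rose and 0 fell. Tfec, the family member restricted mainly to macrophages and related cells, read 183, 136 and 95.2 in normal brain and 2283, 544, 2213 and 2096 in GL261. GL261 replicate 2 was the lowest tumour array and still stood above every normal brain array. Tfec was 11.2-fold higher (log2 3.48, SE 0.48, interval 2.44 to 4.52, limma adjusted p = 0.00146) and was called in all 18 alternative settings. The rest of the family, Tfe3 (-0.24, limma adjusted p = 0.296) and Tfeb (0.03, 0.960), was not called, and both are named here after their values were seen.

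Of 11 genes known as MITF or TFE targets that passed the filter in both groups, 5 rose and 0 fell. Among all genes that passed in both groups, 5.32% were called higher and 4.08% lower. A gene more, Ctsk, was called higher but passed only through GL261. The proton pump subunit Atp6v0d2 read 126, 128 and 21.9 in normal brain against 1263, 546, 1140.2 and 1375 (log2 3.70, SE 0.56, limma adjusted p = 0.00264). The acid phosphatase Acp5 read 1264, 846 and 1172 against 7738, 5150.2, 10022 and 10385 (2.89, SE 0.24, 0.000121). In both genes, GL261 replicate 2 was the lowest of the tumour arrays.

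The collagen-degrading protease Ctsk read 2.93, 6.07 and 29.2 in normal brain, above background on 1 of 3 arrays, and 57.0, 227, 129.6 and 109 in GL261. All 4 tumour arrays lay above the normal brain arrays, and the fitted difference (log2 2.98, limma adjusted p = 0.0142) rests on a normal brain mean of 3.96, below the filter. Gpnmb, Clcn7 and Ostm1, a lysosomal glycoprotein, the lysosomal chloride exchanger and its partner, were the other genes called (1.42, 1.18 and 0.50) and are named after their values were seen. With 1 array left out at a time, limma called Gpnmb and Clcn7 in 7 of 7 fits and Ostm1 in 1. With the mean of probe sets Clcn7 lost its call (log2 0.88, limma adjusted p = 0.111). Between 5 and 6 genes of the list, Ctsk among them, were called higher when 1 array was left out. With normal brain replicate 1 and GL261 replicate 2 both left out, 4 were called, and Ctsk was not (limma adjusted p = 0.0890).

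**Figure D4:**
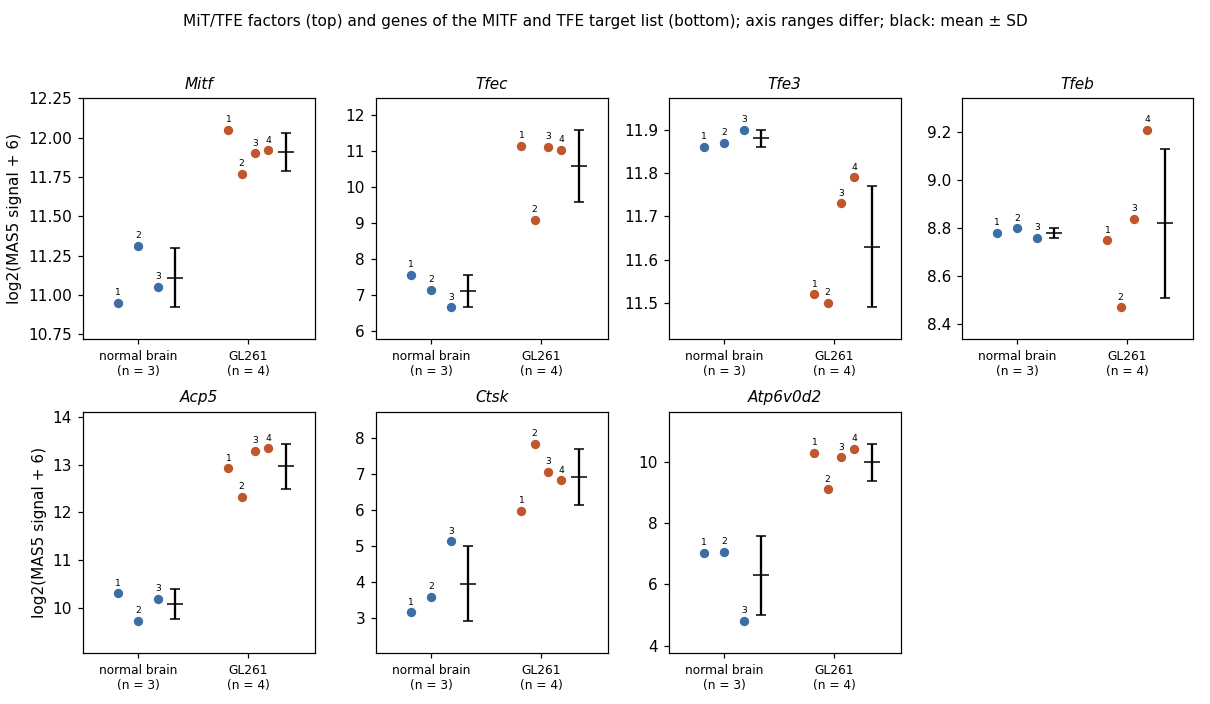
Log2(MAS5 signal + 6) of Mitf, Tfec, Tfe3 and Tfeb (top) and of Acp5, Ctsk and Atp6v0d2 (bottom) on each array of normal brain (blue, n = 3) and GL261 (orange, n = 4). Black bars give mean ± SD, and GL261 replicate 2 lies below the other tumour arrays for Tfec, Acp5 and Atp6v0d2.

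Most of the related genes in each family were not called. For comparison with the counts of these lists, 5.32% of all genes that passed in both groups were called higher and 4.08% lower. Of 14 tested genes of the ETS family and partners of PU.1, 0 rose and 3 fell, with a median of -0.31. Spib, the closest relative of PU.1, read 1556, 1044 and 1738 in normal brain against 441, 383, 642 and 456 (log2 -1.57, SE 0.27, limma adjusted p = 0.00490). Irf4, a factor that binds DNA together with PU.1, read 3711, 3634 and 3811 against 948, 2026, 2223 and 1494 (-1.22, SE 0.25, 0.0122). Both were separate between the groups on all arrays. Spib was called in all 18 alternative settings, and Irf4 lost its call with variances that do not follow the signal (0.0727), where Spib alone was called, and with the mean of probe sets (0.0714).

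The third gene called, the ETS factor Fli1, fell by 0.65 (limma adjusted p = 0.0311), and its call was lost in 5 fits without 1 array, those without normal brain replicates 1 (0.0609) or 3 (0.0988) or GL261 replicates 1 (0.0571), 2 (0.0631) or 3 (0.0923), which left 2 genes called. Irf8, the PU.1 partner of microglia and monocytes, was not called (log2 0.21, limma adjusted p = 0.433).

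In the RUNX list of 6 tested genes, 1 rose and 1 fell (median -0.25). Runx3, a relative of Runx1 best known in lymphocytes and dendritic cells, read 1556, 1645 and 1713 in normal brain against 3868, 3555, 3363 and 2823 (log2 1.04, SE 0.15, limma adjusted p = 0.00233). The corepressor Cbfa2t3 read 4313, 5483 and 5312 against 1299, 2217, 2146 and 1941 (-1.43, SE 0.20, 0.00148). Cbfb, the shared partner of all RUNX proteins, was not called (0.10, limma adjusted p = 0.696). Runx3 and Cbfa2t3 kept their calls in all 7 fits without 1 array. With the mean of probe sets Runx3 lost its call (log2 1.22, limma adjusted p = 0.0528), while Cbfa2t3 was called in all 18 alternative settings. The dimmer probe sets of both genes changed in the same direction as the brightest and were not called.

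In the MAF, MEF2 and C/EBP families, apart from the 9 genes themselves, no gene was called by limma at its brightest probe set. These were 5 MAF-related genes (median -0.12), 7 of the MEF2 list with its deacetylase partners (-0.04) and 5 of the C/EBP list (-0.08). At an unadjusted p under 0.05 the counts were 0, 2 and 1. The gene with the smallest p was Mafg (log2 0.47, limma adjusted p = 0.197) in the first, Mef2a (-0.31, 0.163) in the second and Cebpd (-0.88, 0.134) in the third. A dimmer probe set of Mef2a was called lower (log2 -0.81, limma adjusted p = 0.0332 over all probe sets). The remaining Mef2a probe sets, the brightest among them, also had lower values in GL261 (log2 -1.41 to -0.31) and were not called.

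None of 13 genes listed as clock loop genes bound by BHLHE40 and BHLHE41 was called by limma (median 0.01), and 2 had an unadjusted p under 0.05. The nearest was Hlf (log2 -1.80, limma adjusted p = 0.0554), which read 75.1, 130.5 and 116 in normal brain against 13.1, 18.9, 49.9 and 32.2. It was called in 2 of 17 alternative settings.

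Among 17 tested further regulators of macrophages and microglia, 1 rose and 4 fell (median -0.20). The Krueppel-like factors Klf2 (log2 -0.96, SE 0.15, limma adjusted p = 0.00336) and Klf4 (-0.74, SE 0.13, 0.00541) fell, and so did the orphan receptor gene Nr4a1 (-0.64, 0.0160) and, named after its values were seen, Zeb2 (-0.58, 0.0414). With 1 array left out at a time, limma called Zeb2 in 1 of 7 fits. Without normal brain replicate 3 only 2 of the 4 were called, and Nr4a1 was not (0.0542). Klf2 alone was called lower with median centring, where Klf4 had an adjusted p of 0.0893 and Nr4a1 of 0.184, and with variances that do not follow the signal (0.0512 and 0.0833). Nr1h3, the oxysterol receptor LXR-alpha, rose by 1.83 (limma adjusted p = 0.0201), and this call was lost without normal brain replicate 2 (0.0513) or GL261 replicate 1 (0.0606), 3 (0.0675) or 4 (0.0661). Sall1, a microglial identity factor, did not pass the filter on low values.

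Genes known as targets of these factors followed no single direction. The counts of each target list stand beside 5.32% called higher and 4.08% called lower among all genes that passed in both groups. Of 16 PU.1 targets, 2 rose and 0 fell (median 0.05), namely the NADPH oxidase subunit Ncf4 (log2 0.60, limma adjusted p = 0.0196) and the integrin chain Itgb2 (0.50, 0.0353). Itgb2 lost its call in each of the 7 fits without 1 array, and Ncf4 without normal brain replicate 2 (0.0613) or GL261 replicate 3 (0.0635), so that 0 to 2 were called. With median centring neither was (0.158 and 0.224), nor with variances that do not follow the signal (0.0920 and 0.122). The receptor gene Csf1r (-0.28, limma adjusted p = 0.394), the integrin gene Itgam (0.88, 0.312) and Adgre1, which encodes the sorting marker F4/80 (-0.39, 0.0814), were not called.

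Of 10 C/EBP targets that passed the filter in both groups, 3 rose and 2 fell, and Mpo, which passed only through normal brain, was also called lower. The acute-phase gene Saa3 read 54.0, 119 and 2.08 in normal brain against 1945, 973, 1612 and 2502 (log2 5.41, SE 0.75, limma adjusted p = 0.00148). The arginine-degrading enzyme Arg1 read 265, 23.0 and 138 against 5693, 907, 7544 and 6724 (5.28, SE 0.78, 0.00243). Il1rn, the interleukin-1 receptor antagonist, rose by 0.90 (0.00509), and all of these calls held without any 1 array.

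The C/EBP targets called lower were Mpo, an enzyme of neutrophil granules (log2 -3.84, limma adjusted p = 0.00564), and, named after their values were seen, Ptgs2 (-0.76, 0.0157) and the chemokine gene Ccl3 (-0.78, 0.0315). When 1 array was left out, 1 to 4 were called lower, with 1 without normal brain replicate 3, and 2 when normal brain replicate 2 or GL261 replicates 1 or 2 were left out. With median centring, and with variances that do not follow the signal, 1 was called lower, and neither Ptgs2 (0.133 and 0.0841) nor Ccl3 (0.237 and 0.118) was. Of 6 neutrophil marker genes that passed in both groups, 5 fell, and Mpo is also in that list.

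Of 13 listed targets of the MAF family, 1 rose and 6 fell (median -0.69). The cytokine gene Il10 read 618, 740.2 and 1445 in normal brain against 254, 290.3, 189 and 239 (log2 -1.83, SE 0.36, limma adjusted p = 0.00966). Its call held in all 7 fits without 1 array. The haemoglobin scavenger receptor Cd163 (-1.82, limma adjusted p = 0.0306) and the folate receptor Folr2 (-1.40, 0.0484) each kept it in 2 of the 7, and Mertk, an uptake receptor for dying cells, rose by 1.06 (0.0243) and kept it in 3.

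The number called lower was 3 when normal brain replicate 2 or GL261 replicates 1 or 3 were left out, and 4 when normal brain replicate 1 or GL261 replicates 2 or 4 were, each in its own fit. With variances that do not follow the signal 3 were called lower. Mertk was not called without normal brain replicate 2 or GL261 replicate 1, 3 or 4 (limma adjusted p = 0.0695, 0.0682, 0.0765 and 0.0686), with median centring (0.0578) or with variances that do not follow the signal (0.107). Of the genes that fell, 5 are also in the list of border-associated macrophage markers, so the lists are not independent.

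**Figure D5:**
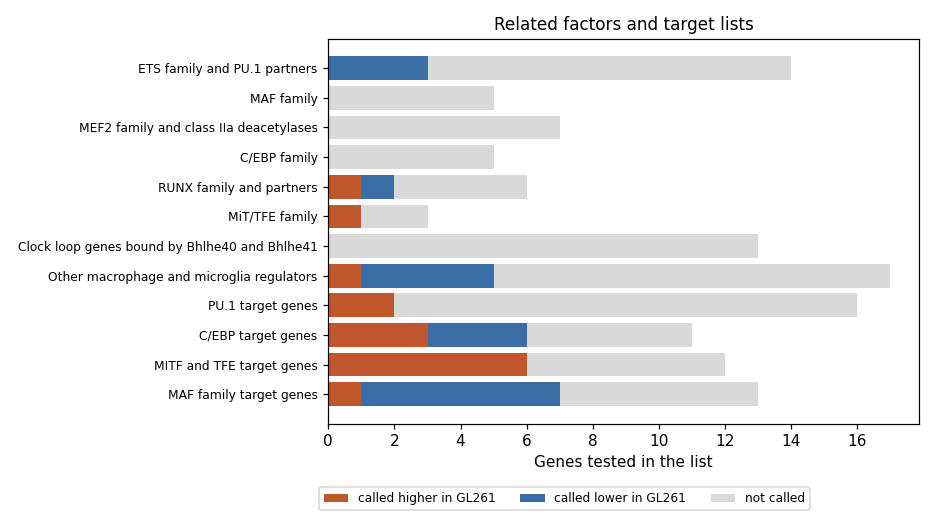
Number of genes tested in each list of related factors or known targets, split into those called higher in GL261 (orange), called lower (blue) and not called (grey) by limma at an adjusted p under 0.05. The MITF and TFE targets hold 6 called higher, with Ctsk among them, and 0 lower, and the MAF family targets 1 higher and 6 lower.

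Signs of several other cell types, and the Gapdh measure of RNA quality, moved with the groups. Counts of called markers stand beside the same shares, 5.32% higher and 4.08% lower among all genes that passed in both groups. Sums overlapped for astrocyte (948 to 2468 in normal brain, 849.6 to 1951 in GL261), oligodendrocyte (6895 to 12196, 4607 to 7791) and neuron markers (286 to 565, 267 to 1246). Of these, limma called 0 of 6 astrocyte genes, 1 of 4 oligodendrocyte genes (lower) and 1 of 5 neuron genes. That neuron gene was higher and passed the filter only through GL261. All 10 macrophage and leukocyte markers were above background on all 7 arrays. The summed signal of the 9 microglia markers on the array was 30646 to 34545 in normal brain and 16720.0 to 22045 in GL261, and 6 of the 8 tested fell. The number called lower was 3 without normal brain replicate 3 or GL261 replicate 4, 3 with median centring and 1 with variances that do not follow the signal. For 8 border-associated macrophage markers it was 33794 to 37379 and 19414 to 21162, and 7 fell. Of these, 3 were called when normal brain replicate 2 or GL261 replicates 1 or 3 were left out, and 4 when normal brain replicate 1 or GL261 replicate 4 was. With median centring 4 were called, and 2 with variances that do not follow the signal. These sums moved in the same direction as Maf and Mef2c, and their part in those changes was not tested.

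The 6 tested B cell markers all fell, in the direction of Mef2c, Spib and Irf4, which B cells also express. The sum of the 7 B cell markers on the array was 5066 to 7059 in normal brain and 861 to 1579.8 in GL261. Of 6 endothelial markers that passed the filter in both groups 2 fell, with list sums of 2626 to 3708 and 479 to 1903, and Tek, which passed only through normal brain, was also called lower. Pecam1 (log2 1.23, limma adjusted p = 0.127), higher on every GL261 array, and Kdr (0.43, 0.647) went the other way and were not called. Both are named after their values were seen. Counting Tek, 5 endothelial markers were called lower without GL261 replicate 2, which had the highest tumour sum, and 0 with variances that do not follow the signal. Neither list had a gene at background on all arrays, and their part in the changes of Mef2c, Spib, Irf4, Fli1 and Bhlhe41 was not tested. Neutrophil markers fell too, from 39628 to 50929.8 to 16446 to 22909.6.

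Erythroid markers had summed signals of 9421 to 16097 in normal brain and 76.9 to 4498 in GL261. The globin gene Hbb-b2 read 65.5, 4187, 108 and 180.2 on the GL261 arrays, so replicate 2 stood apart, and it fell (log2 -5.40, limma adjusted p = 0.00902, and -6.69 without that array). Alas2, the haem synthesis enzyme of red cells, was called lower (-4.85, limma adjusted p = 0.0175) but passed the filter only through normal brain. Their part in the changes of the factors was not tested.

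In the direction of Cebpb and Mitf, oligodendrocyte precursor markers had sums of 188 to 361 in normal brain and 900.2 to 2489.7 in GL261. Of 3 that passed the filter in both groups 1 rose, Olig1 (log2 2.77, limma adjusted p = 0.00803), while Sox10 and Olig2 passed only through GL261. Monocyte markers moved both ways, with sums of 14858 to 18988 and 16614 to 23930.0. Of 5, 2 rose, among them the chitinase-like gene Chil3 (1.13, limma adjusted p = 0.00382), and 1 fell, the chemokine receptor gene Ccr2 (-0.63, 0.0299), whose call held in 2 of 7 fits, those without normal brain replicate 1 or GL261 replicate 2.

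Of 8 T and NK cell markers 3 rose (sums of 5109.7 to 6566 and 7136 to 13474), with 0 called by limma without GL261 replicate 3 or 4 and 1 without replicate 1 of either group. In the list of pericyte and fibroblast markers (529 to 1667 and 1845 to 3141), 2 of 7 rose, the matrix genes Col1a1 (log2 2.73, limma adjusted p = 0.0353) and Dcn (1.57, 0.0470). The pericyte genes Pdgfrb (0.56, limma adjusted p = 0.508) and Rgs5 (-0.93, 0.368), named after their values were seen, were not called. No gene of that list was called when normal brain replicate 1 or GL261 replicates 2 or 3 were left out. The part of these lists in the changes of Cebpb and Mitf was not tested.

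Melanocytes also depend on MITF, and their markers were near background. Tyr, Mlana and Tyrp1 were at background on all 7 arrays, none of 6 passed the filter, and the sum was 13.5 to 42.6 in normal brain and 38.6 to 50.8 in GL261. Of 6 tested markers of mast cells, another MITF-dependent lineage, none was called by limma. The 3 with an unadjusted limma p under 0.05 were those that passed the filter only through normal brain. The sums over the 7 listed genes were 790.3 to 1583 in normal brain and 392 to 1262 in GL261.

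The ratio of 3' to 5' signal of Gapdh, a measure of RNA length, was 2.39 to 2.43 in normal brain and 1.64 to 1.89 in GL261 (two-sided exact permutation p = 0.0286). The ratio for actin was 1.43 to 1.64 and 1.36 to 1.52 (exact permutation p = 0.143). The arrays shared a trimmed mean signal of 500.0. Their part in the changes of the factors was not tested.

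The genes most like each factor were found by the root mean square difference of log2 values over the 7 arrays, each gene centred on its own mean. For Maf these were Ang (0.08, itself lower by -1.03 on the log2 scale) and E430024I08Rik (0.09), and for Mef2c the receptor gene Nrp1 (0.08, log2 -0.83) and Cyth4 (0.10). Mitf was closest to Serhl (0.09) and Aacs (0.09), and Cebpb to Aprt (0.12) and the hypoxia-inducible lipid droplet gene Hilpda (0.12). Of these, only Aacs was not called (limma adjusted p = 0.349). Genes chosen in this way share the group difference of the factor through the choice itself, so their calls are no separate result.

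By the same choice, the genes nearest to the factors that were not called were not called either. Spi1 was nearest to the AP-1 gene Junb (0.07) and Ubxn6 (0.08), Cebpa to the ubiquitin ligase gene Dtx3l (0.04) and Selenot (0.05), Bhlhe40 to Ctdsp2 (0.06) and Eif3f (0.07), and Runx1 to Dnajc25 (0.12) and Gpn2 (0.18). Bhlhe41 had no close match, with Cd209c at 0.40 and Sox17 at 0.48. Each pattern rests on 7 arrays, and the likeness was not tested.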

How the data were processed

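RNA was labelled as biotinylated cRNA for Affymetrix mouse arrays, per the labels' protocols. The authors deposited 1 linear intensity per probe set, made with MAS5 per the submitters' processing notes, and the MAS5 version is not given in the sources used here. Every array had a trimmed mean of 500.0 without the lowest and highest 2%, so no further scaling was applied. Of 45101 probe sets, 64 were controls, 34945 had 1 gene symbol in the probe table, 932 had several and 9160 had none, and only those with 1 were used for genes. The probe table's symbols were used as given.

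Intensities were taken to log2 after adding 6, their 20th percentile, which shrinks folds of dim genes. The brightest probe set by mean stood for a gene, which was tested when that mean exceeded 4.93, the 40th percentile, which left 12125 genes. The groups were compared with limma 3.58.1 (R 4.3.3) with a variance trend, two-sided, with Benjamini-Hochberg adjustment over all genes, or over 27022 probe sets where probe sets are tested. Background was the 95th percentile of 27 unspiked control probe sets per array (signal 12.3 to 19.9). Single measures within arrays were tested by exact permutation over 35 splits. The fit was tested on simulated data. Arrays limit precision by their number. Plots were made with matplotlib 3.10.9 under Python 3.11.15.

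The 9 genes and the lists were chosen with earlier results of these data known. Named genes were the 9, up to 3 called genes of each list in the main direction and 1 in the other, or the one with the smallest p, 8 fixed genes (1 is not reported here), and the 2 nearest in pattern to each factor. Alternatives were other pseudocounts (1 and 58), filters (none and the 60th percentile), median centring or quantile normalization, the replicate number as a block, no variance trend, array weights, the mean of probe sets, and arrays left out. Counts over lists under these settings, and counts of genes that passed the filter in both groups, were added after the data were seen. Outside the block setting, the replicate numbers were not used to pair the samples.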

Additional observations from a re-analysis of the deposited data

How the results depend on the processing

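Of the 5 factors called, Maf and Mef2c were called in all 18 alternatives and Cebpb in 16, while 15 kept Mitf and 7 of 17 kept Bhlhe41, which a filter at the 60th percentile removed. No factor changed sign among those called. The number of factors called was 3 with median centring (Maf, Mef2c, Bhlhe41), 2 with no variance trend (Maf, Mef2c) and 3 with the mean of probe sets (Cebpb, Maf, Mef2c), and 4 to 5 when 1 array was left out. Genes called numbered 1227 in the reported analysis, 810 with median centring and 455 with no trend, and 534 to 1179 when 1 array was left out. The lowest was without GL261 replicate 3, and GL261 replicates 1 (715) and 4 (723) followed. Probe sets called numbered 1473, 858 without a filter, 340 with no trend, 895 with normal brain replicate 1 and GL261 replicate 2 both left out, and 521 to 1356 when 1 array was left out, with 835 without normal brain replicate 2, 909 without normal brain replicate 3, and 707, 521 and 687 without GL261 replicate 1, 3 or 4. Fewer arrays, more probe sets to adjust over and a different variance model are part of these settings, and other causes were not tested. With the replicate block, 4 factors (Bhlhe41 lost) and 1004 genes were called. Arrays of the same number deviated together at r = 0.08, -0.01 and 0.03. So few arrays cannot settle whether the labels' numbers pair them. Signal over background limits Bhlhe41 and Ctsk.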
